A study of Homo sapiens with 8 samples.

Results

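The 10 chemokine genes CXCL1, CXCL2, CXCL3, CXCL5, CXCL6, CXCL8, CXCL16, CCL2, CCL20 and CCL28 were described among the 18244 genes measured on 8 expression arrays of human lung adenocarcinoma cells. Their names were given, and each gene was represented by the probe set with the highest mean signal over the 8 arrays among those annotated to that gene alone. All 10 had such a probe set, 19 probe sets in all. The genes were chosen by measured values, with earlier results of these data in view: the gefitinib minus control differences in the pairs of HCC827 arrays, several being lower in both. Differences in those pairs are therefore given as values without a test. The study compared A549 cells, labelled as having no activating EGFR mutation, with HCC827 cells, labelled as having one, in 2D dishes and on a 3D collagen scaffold, untreated or with gefitinib, which blocks the EGFR kinase, at 1 µM. There was 1 array for each of the 8 combinations of line, culture and treatment, so no condition had a replicate. The 2D cultures ran for 7 days from 200000 cells and the 3D cultures for 14 days from 100000 cells, without perfusion. In 3D, gefitinib was present for the last 3 days, from day 11. A start at day 4 is stated in a sentence that also names 3D, and the length of treatment in 2D is not given. Control cultures received no inhibitor. Scaffolds were lysed with beads and extracted on micro columns, dishes on mini columns, so culture, culture length, cell number and RNA preparation cannot be told apart.

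Chemokines are small secreted proteins that guide leukocytes along concentration gradients by binding G protein-coupled receptors. CXCL1, CXCL2, CXCL3, CXCL5, CXCL6 and CXCL8 carry the Glu-Leu-Arg (ELR) motif ahead of the paired cysteines and attract neutrophils through CXCR2, and CXCL6 and CXCL8 also through CXCR1. CXCL16 is made as a membrane-bound protein that is shed by ADAM proteases and binds CXCR6. CCL2 attracts monocytes through CCR2, CCL20 attracts CCR6-bearing dendritic cells and lymphocytes, and CCL28 is a mucosal ligand of CCR10 and CCR3. Airway and lung cancer epithelial cells are known sources of several of them, and NF-kB and AP-1 are the textbook inducers of CXCL8. A549 and HCC827 are both epithelial lines.

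The 6 ELR genes lie in 1 stretch of chromosome 4, in the order CXCL8, CXCL6, CXCL1, CXCL5, CXCL3 and CXCL2. RefSeq lists 9 protein-coding genes in it. The other 3 are PF4V1, PF4 and PPBP, which encode platelet chemokines. RefSeq promoter windows (GRCh38.p14, 250 bases before to 50 after the transcription start) were matched by symbol for 8 of the 10 members, in 9 windows because CCL28 had 2 starts. They are shown because the 6 neighbours share a kappaB-type sequence close to the start, in a set of genes whose levels are compared below. Each stretch of 50 bases is written 5′ to 3′ on the strand of the gene, with the match to GGAATTTCC in capitals, together with the G before it where there is one.
CXCL8: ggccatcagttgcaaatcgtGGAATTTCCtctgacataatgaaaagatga
CXCL6: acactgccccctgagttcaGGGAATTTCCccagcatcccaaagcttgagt
CXCL5: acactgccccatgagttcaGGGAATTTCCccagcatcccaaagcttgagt
CXCL1: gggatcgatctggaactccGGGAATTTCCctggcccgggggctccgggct
CXCL3: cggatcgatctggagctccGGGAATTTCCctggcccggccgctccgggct
CXCL2: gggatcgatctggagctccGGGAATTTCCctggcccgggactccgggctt

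These stretches are chr4:73740458-73740507 (plus strand) for CXCL8, chr4:73836569-73836618 (plus) for CXCL6, chr4:73998738-73998787 (minus) for CXCL5, chr4:73869295-73869344 (plus) for CXCL1, chr4:74038738-74038787 (minus) for CXCL3 and chr4:74099243-74099292 (minus) for CXCL2. All 6 lie upstream of the annotated start. The word GGAATTTCC, searched on both strands, occurred in 6 of the 9 member windows and in 0.461% of all 35116 windows. The longer word with a further G before it, which overlaps it, occurred in 5 of 9 and in 0.145%. Counted from the start, the capitals began at -91 in CXCL8 and CXCL5, -90 in CXCL6, -79 in CXCL1 and CXCL3, and -78 in CXCL2. The AP-1 word TGANTCA occurred in 1 member window, that of CXCL8, and in 7.71% of all windows.

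The full 250 bases upstream of CXCL8 (chr4:73740319-73740568, plus strand) show both matches in capitals, the AP-1 word from -137 to -131 and the kappaB-type word downstream of it.
CXCL8: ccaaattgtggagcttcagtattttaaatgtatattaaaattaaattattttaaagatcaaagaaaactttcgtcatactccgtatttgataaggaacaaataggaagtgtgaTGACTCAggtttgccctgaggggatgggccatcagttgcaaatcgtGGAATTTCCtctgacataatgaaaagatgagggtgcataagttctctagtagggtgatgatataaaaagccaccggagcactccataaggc

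CCL20, on chromosome 2, held neither of the kappaB-type words but 1 match to the broader NF-kB consensus on the opposite strand, from -79 to -70, in capitals (chr2:227813743-227813792, plus strand).
CCL20: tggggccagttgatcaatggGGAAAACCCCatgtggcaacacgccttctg

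That consensus occurred in 11.3% of all windows and in 6 of the 9 member windows, overlapping the kappaB-type word in the other 5, and was not matched in the windows of CXCL8 or CCL28. Over the 250 upstream bases, 85.3% of alignment columns were identical between CXCL5 and CXCL6, 81.4% between CXCL1 and CXCL3, 73.4% between CXCL2 and CXCL3 and 70.1% between CXCL1 and CXCL2. CXCL8 shared 44.3% to 48.1% with the other 5, and unrelated promoters were not aligned for comparison. A match describes these letters and shows neither binding nor activity.

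**Figure D1:**
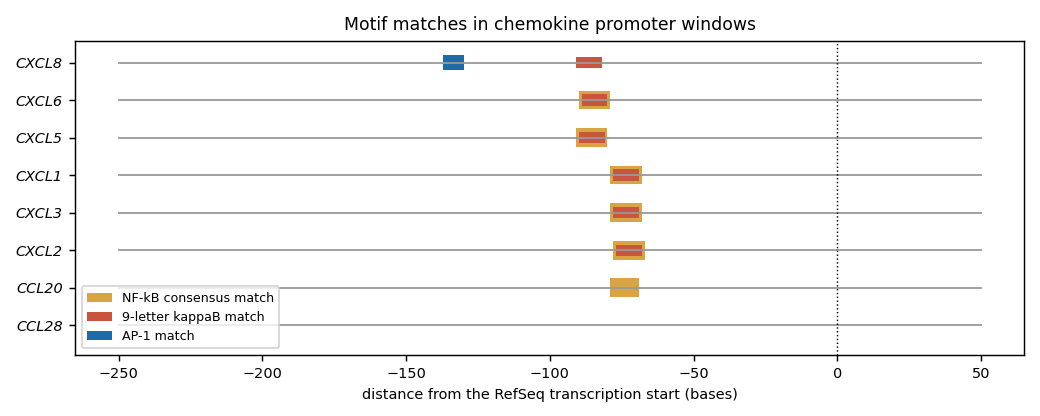
Matches in the promoter windows of the members with a RefSeq window, by distance in bases from the annotated start (dotted line). Red marks the 9-letter kappaB-type word, gold the broader NF-kB consensus and blue the AP-1 word. The 6 ELR genes have the red match between -91 and -69, and CCL28 has no match in either of its windows.

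Facts of the whole series that touch these genes are as follows. Array medians lay between 7.27 and 7.34 (log2), and the number of arrays limits precision. All 6 epithelial markers were above the array median on all 8 arrays, and EGFR was higher in HCC827 than in A549 by log2 2.62 ± 0.21 (SE). Of 12 leukocyte markers, 4 to 6 exceeded the array median, with summed log2 levels of 86.57 to 88.34 in A549 and 83.68 to 85.71 in HCC827, and CD68 or TYROBP the highest. Fibroblast markers exceeded it in 0 to 2 of 8 cases and endothelial markers in 0 to 2 of 6. The actin 3′ minus 5′ signal, a measure of RNA integrity, was 1.67 to 2.64 (log2) in the 3D arrays and -0.14 to -0.05 in the 2D arrays. The HCC827 2D pair goes against its labels in one respect. DUSP6, a phosphatase induced by ERK, was lower with gefitinib in the 3D pair, by -3.32, but higher in the array labelled gefitinib in 2D, by 3.64. Of 14 ERK and AP-1 response genes, 12 were above 0 in the 2D pair and below 0 in the 3D pair, against 33.1% of all genes tested. The control and gefitinib labels of this 2D pair may have been exchanged, which was not tested. The HCC827 2D arrays are named below by their labels. Counts of members, NF-kB genes and ERK and AP-1 genes below 0 in both HCC827 gefitinib pairs are also given with the pair turned. Other results that rest on the order of the pair are given as labelled unless stated.

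Gefitinib in HCC827 was set against control in 1 pair of arrays for each culture. Here 7 of the 9 members that passed the filter on low values were lower in the array labelled gefitinib in both pairs, against 31.8% of the 11926 genes tested. By 2-fold or more in both pairs, 3 members were lower, CXCL2, CXCL6 and CXCL8, against 0.0671% of all genes, and by 1.5-fold 5 members, with CXCL1 and CXCL5 added, against 0.268%. In the 2D pair alone 7 of 9 were lower by 2-fold or more, against 1.62%, and in the 3D pair alone 4 of 9, against 3.14%. These counts rest on the order of the 2D pair. With that pair turned, 0 of 9 members were lower by 2-fold in both pairs and 1 of 9, CCL20, was below 0 in both, while 7 were above 0 in 2D and below 0 in 3D. Over all genes the turned pair gave 1.51% lower by 2-fold in both and 33.1% below 0 in both. Above 0 in 2D and below 0 in 3D were then 31.8% of all genes. Of the 14 ERK and AP-1 genes 12 were then below 0 in both. Nothing is read from these shares, in either order, because the members were chosen with these pairs in view.

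**Figure D2:**
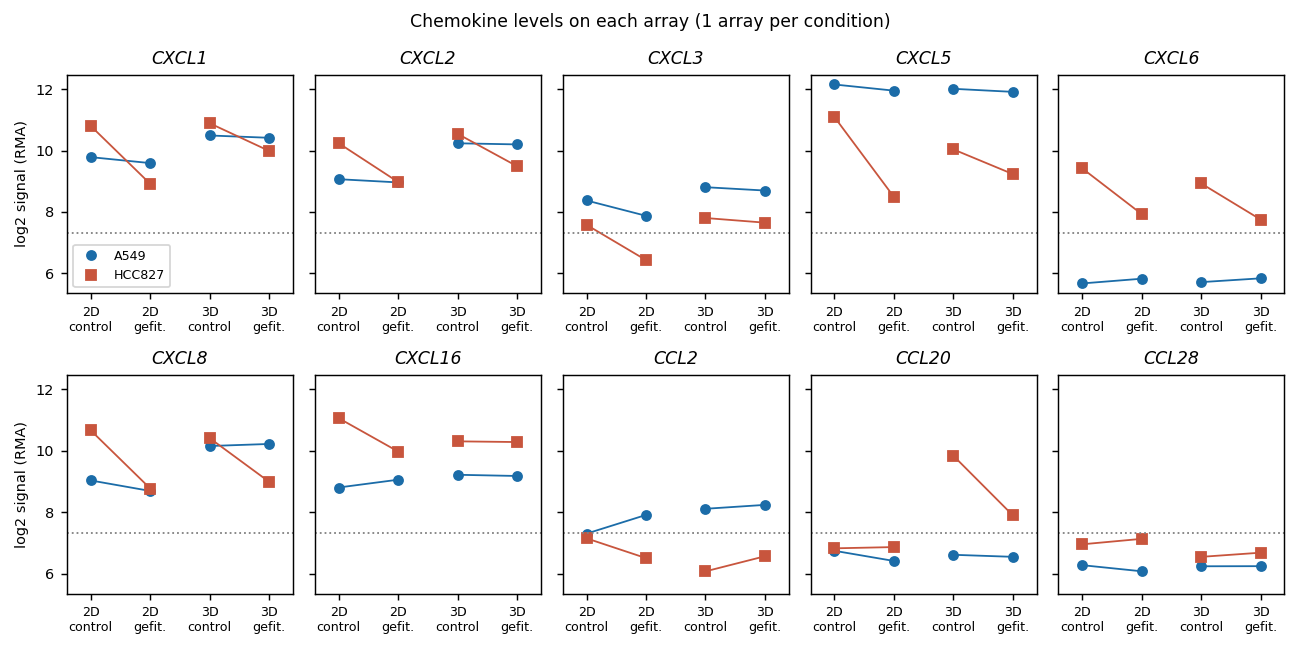
Level of each chemokine (log2 RMA signal) on the 8 arrays, with a line joining the control and gefitinib array of each pair. Blue circles are A549, red squares HCC827, and the dotted line is the mean of the array medians. The HCC827 gefitinib squares of CXCL1, CXCL2, CXCL5, CXCL6 and CXCL8 lie below their controls in both cultures, while the A549 pairs are nearly level.

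Among the neutrophil-attracting ELR genes, CXCL8 (interleukin-8) read 10.66 in the HCC827 2D control array and 8.77 in the array labelled 2D gefitinib, and 10.41 and 8.99 in the 3D control and gefitinib arrays. The differences were -1.89 in 2D and -1.42 in 3D, which are 3.71-fold and 2.68-fold lower. Both gefitinib arrays were below both control arrays. CXCL6 read 9.42 and 7.93 in the 2D pair and 8.93 and 7.75 in the 3D pair, differences of -1.49 and -1.17. CXCL2 read 10.24 and 8.98 in 2D and 10.54 and 9.49 in 3D, differences of -1.26 and -1.05, the member just inside the 2-fold threshold. CXCL1, just outside it, read 10.80 and 8.91 in 2D and 10.89 and 9.99 in 3D, differences of -1.88 and -0.90. For all 4 of these genes the control arrays of the cultures differed by less than the control and gefitinib arrays of either pair.

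CXCL5 had the largest 2D difference of the group. It read 11.09 in the 2D control array and 8.49 in the array labelled 2D gefitinib, a difference of -2.60 or 6.05-fold. In 3D it read 10.04 and 9.23, a difference of -0.80 or 1.74-fold. CXCL3 read 7.58 and 6.44 in 2D, a difference of -1.15, and 7.80 and 7.65 in 3D, a difference of -0.15. These genes were thus lower in both pairs by unequal amounts. CXCL1 and CXCL2 have closely related transcripts, and a probe set annotated to both, left out by the rule, read 9.38 and 8.10 in the 2D pair and 8.99 and 8.28 in the 3D pair. Their separate values are uncertain to that extent.

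The other members did not share this pattern. CXCL16, the CXCR6 ligand, read 11.06 and 9.98 in the 2D pair, a difference of -1.08, but 10.31 and 10.28 in the 3D pair, a difference of -0.02. CCL20 did the opposite. It read 6.83 and 6.87 in the 2D pair, under the array median, and 9.84 and 7.90 in the 3D pair, a difference of -1.94 or 3.83-fold. CCL2 read 7.15 and 6.51 in 2D (-0.64) and 6.08 and 6.57 in 3D (0.49), with opposite signs and all 4 arrays below the array median. CCL28 read 6.55 to 7.14 over the 4 HCC827 arrays, below every array median, and did not pass the filter.

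**Figure D3:**
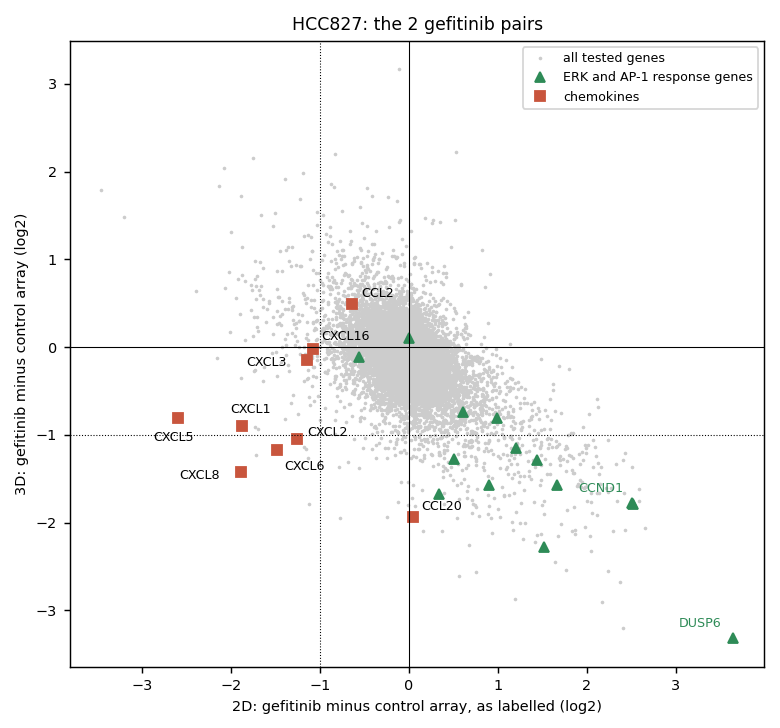
Gefitinib minus control (log2) in the HCC827 3D pair (vertical axis) against the HCC827 2D pair as labelled (horizontal axis), 1 array against 1 array. Grey points are all 11926 tested genes, red squares the chemokines and green triangles ERK and AP-1 response genes, and the dotted lines mark a 2-fold fall. Most triangles lie at lower right, with opposite signs in the pairs, while CXCL1, CXCL2, CXCL5, CXCL6 and CXCL8 lie at lower left.

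The choice of probe set left the sign of most of these differences as it was. The 3 probe sets of CXCL8 ranged from -1.89 to -1.07 in the 2D pair and from -1.42 to -0.71 in the 3D pair. The 3 of CXCL5 ranged from -2.60 to -2.28 and from -0.80 to -0.71. The 2 of CXCL1 gave -1.88 and -1.13 in 2D and -0.90 and -0.81 in 3D. The 2 of CXCL2 gave -1.26 and -1.12 in 2D and -1.05 and -0.79 in 3D. When all probe sets of a gene were averaged, the number lower by 2-fold in both pairs was 1 in place of 3, and with cyclic loess it was 2. Both counts take the 2D pair as labelled.

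The other genes lower by 2-fold or more in both HCC827 pairs as labelled numbered 5 and are named after their values were seen. They were SGK1 (-1.72 in 2D and -1.23 in 3D), a serum- and glucocorticoid-regulated kinase, ICAM1 (-1.15 and -1.16), a leukocyte adhesion molecule, and the transcription factor MAF (-1.19 and -1.14). The remaining ones were SAA1 (-1.13 and -1.26), an acute-phase protein, and TCIM (-1.12 and -1.78). ICAM1 read 10.64 and 9.49 in the 2D pair and 11.74 and 10.58 in the 3D pair, against 7.24 to 7.73 in A549. Of 15 tested NF-kB subunits and feedback genes, 11 were below 0 in both pairs, with medians of -0.40 in 2D and -0.52 in 3D, and 0 were lower by 2-fold in both. The ubiquitin-editing enzyme TNFAIP3 read -1.06 in 2D and -0.62 in 3D. The inhibitor NFKBIA read -1.06 and -0.23. Of 55 tested genes other than the members with GGAATTTCC in their promoter window, 25 (45.5%) were below 0 in both pairs, against 31.8% of all genes, with medians of -0.12 in 2D and -0.13 in 3D. For the 19 of them with the longer word there were 12 (63.2%), with medians of -0.22 and -0.23. The medians over all genes tested were -0.05 and -0.11. These counts describe the same 4 arrays with the 2D pair as labelled, and were not tested. With that pair turned, 2 of the 15 NF-kB genes were below 0 in both pairs, against 33.1% of all genes tested. The 5 genes named above would then have opposite signs in the pairs. The promoter word counts were not made in that order.

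In A549, which is labelled as lacking an activating EGFR mutation, the response to gefitinib was tested as the mean over both cultures. No member passed the threshold of an adjusted p under 0.05 by limma (0 of 9, and 0 at an unadjusted p under 0.05), against 0% of all genes (0 of 11926, and 86 at an unadjusted p under 0.05). Omitting any single HCC827 array moved the 86 to between 1458 and 1464, with 0 called, and a fit of A549 by itself gave 1471 with 2 genes called, neither of them a member. The adjusted p was 0.9996 for every member tested. In both A549 pairs 5 of 9 members were below 0, against 20% of all genes, and 0 were lower by 2-fold. CXCL8 read 9.04 and 8.69 in the 2D pair and 10.16 and 10.22 in the 3D pair, so the pairs had opposite signs. CXCL5 read 12.15 and 11.95 in 2D and 12.01 and 11.91 in 3D, a mean difference of -0.15 ± 0.45. CXCL1 stood at -0.13 ± 0.27 and CXCL2 at -0.07 ± 0.13. CCL2 read 7.31 and 7.91 in 2D and 8.11 and 8.24 in 3D, a mean of 0.37 ± 0.31, the largest of the members. Whether the lines differed in their response was not tested, since the HCC827 side chose the members.

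The levels of the lines were compared over 4 arrays each. CXCL16 was higher in HCC827, and CXCL5 and CXCL3 were higher in A549. CXCL6, CCL20 and CCL2 exceeded the array median in 1 line only and so entered the test through the line where they are high. Their line differences had to be large and are given as values without a test. Of the other 6 members 3 passed the threshold by limma, 1 higher and 2 lower in HCC827, against 48.1% of all genes tested (22% higher and 26.1% lower), a background that includes genes of both kinds. The ranges of the lines did not overlap for these 3 of the 6 members, and for 32.6% of all genes tested. The lines were also compared array by array at matched culture and treatment. Of the 6 members, 1 (CXCL16) was higher in HCC827 in 4 of 4 pairs, against 27.4% of all genes. Another 2 (CXCL3 and CXCL5) were lower in 4 of 4, against 32.4%. CXCL6, CCL20 and CCL2 also had ranges apart and the same sign in 4 of 4 pairs. They are not counted, because the filter favours such differences. The median difference of the 6 members tested was 0.13, against -0.03 for all genes.

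CXCL16 read 8.81 to 9.22 in A549 and 9.98 to 11.06 in HCC827, a difference of 1.34 ± 0.20 (adjusted p = 0.00839). CXCL5 read 11.91 to 12.15 in A549 and 8.49 to 11.09 in HCC827, a difference of -2.29 ± 0.32 (adjusted p = 0.00641), or 4.88-fold. CXCL3 read 7.88 to 8.81 in A549 and 6.44 to 7.80 in HCC827, a difference of -1.07 ± 0.19 (adjusted p = 0.0133). CXCL1 (0.08 ± 0.19), CXCL2 (0.20 ± 0.09) and CXCL8 (0.18 ± 0.13) did not pass, with adjusted p of 0.762, 0.147 and 0.320.

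Among the members left out of the line test, CXCL6 read 5.68 to 5.84 in A549, below the median of the background probe sets on every array, and 7.75 to 9.42 in HCC827. No fold is given against a signal at background. CCL20 read 6.42 to 6.75 in A549 and 6.83 to 9.84 in HCC827. In 2D its HCC827 arrays read 6.83 and 6.87, just above the highest A549 array, and it exceeded the array median in the 2 HCC827 3D arrays alone. CCL2 read 7.31 to 8.24 in A549 and 6.08 to 7.15 in HCC827, and exceeded the array median in 3 A549 arrays alone.

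The means over 4 arrays combine unlike pairs. CXCL8 was higher in HCC827 than in A549 by 1.63 between the 2D control arrays and by 0.26 between the 3D control arrays, and stood at 0.08 and -1.23 between the gefitinib arrays. CXCL1 stood at 1.01 and 0.40 between controls and at -0.68 and -0.43 between gefitinib arrays. CXCL2 stood at 1.17 and 0.31, then at 0.01 and -0.71. These values share the HCC827 arrays with the gefitinib pairs that chose the members, and are a description with no test. The line means tested above include the same arrays, so their p-values are not independent of that choice.

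Because the spread of the fit is the change of each line's gefitinib difference between cultures, leaving out an array changes which line supplies it. With the spread from HCC827 alone, when any single A549 array was omitted, 1 of the 6 members passed, CXCL5. With the spread from A549 alone, 6 passed when the HCC827 3D control or the array labelled 2D gefitinib was omitted, and 3 otherwise. Over all 11926 genes the same fits called 1841 to 1898 and 8404 to 8585. CXCL5 passed in every one of these 8 fits. With the HCC827 2D pair turned the same 3 members passed. Without both HCC827 2D arrays, which leaves the lines compared in 3D, CXCL8 stood at -0.49. That mean combines 0.26 between the control arrays and -1.23 between the gefitinib arrays. It shares the HCC827 3D arrays with the pairs that chose the members and is given without a test.

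**Figure D4:**
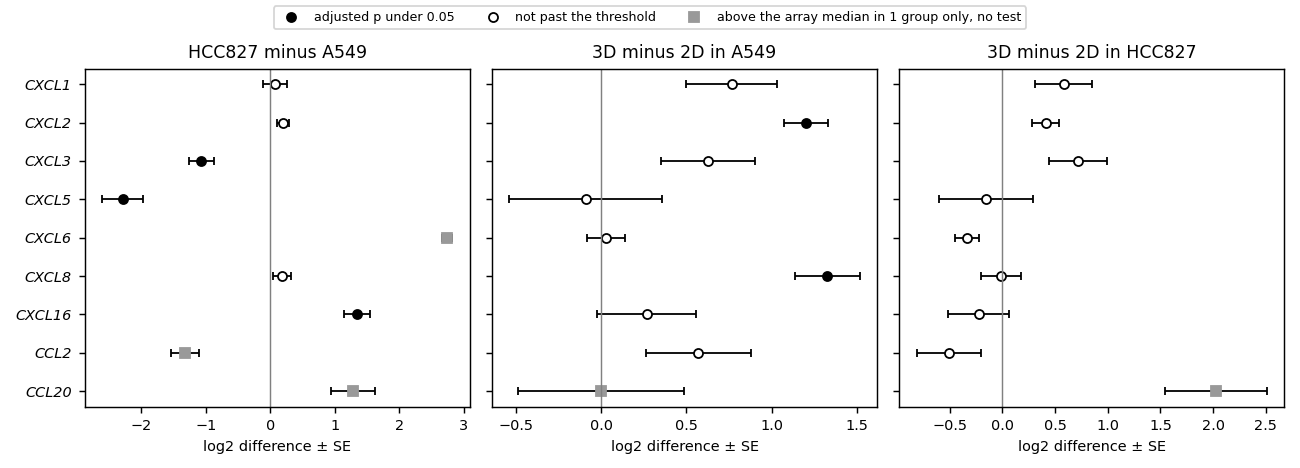
Fitted log2 differences of the 9 tested chemokines with their standard errors, for HCC827 minus A549 and for 3D minus 2D in each line (horizontal axes differ in range). Filled circles passed an adjusted p under 0.05, and grey squares are members that exceed the array median in 1 of the groups compared only and have no test. CXCL5, CXCL3 and CXCL16 are the filled circles between the lines, CXCL2 and CXCL8 those for culture in A549, and culture in HCC827 has none.

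Culture on the scaffold was compared with 2D culture within each line. In A549, CXCL2 and CXCL8 rose with the probe sets used, 2 of 8 members against 22.3% of all genes tested (16.3% higher in 3D and 6.01% lower). A member with alike gefitinib differences in both HCC827 pairs has small standard errors here, and the members were chosen on those pairs. The choice therefore favours these calls, and nothing is read from the share. CXCL2 read 9.07 and 8.96 in the 2D control and gefitinib arrays and 10.23 and 10.20 on the scaffold, higher by 1.20 ± 0.13 (adjusted p = 0.0180). CXCL8 read 9.04 and 8.69 in 2D and 10.16 and 10.22 in 3D, a difference of 1.32 ± 0.19 (adjusted p = 0.0227). The 3D arrays were above the 2D arrays for both genes. CXCL1 (0.76 ± 0.27, adjusted p = 0.109), CXCL3 (0.63 ± 0.27, 0.168) and CCL2 (0.57 ± 0.31, 0.242) were not past the threshold, and CXCL5 (-0.09 ± 0.45) and CXCL6 (0.03 ± 0.11) were near 0. CCL20, which exceeded the array median in 3D arrays alone, was left out of the test of culture. With the HCC827 2D pair turned, which changes the spread of the fit but not the A549 values, neither passed (adjusted p of 0.0654 for CXCL2 and 0.132 for CXCL8), and CCL2 did (0.0136). The turned fit called 5405 of 11926 genes, against 2665 as labelled. Nothing is read from this exchange of calls, because the spread rests on the HCC827 pairs that chose the members. Members above 0 in both the control and the gefitinib pair numbered 7 of 9, against 56% of all genes. The median over the 8 members was 0.60, against 0.13 for all genes tested.

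The rise of CXCL8 depended on its probe set. The 3 probe sets gave 1.32, 0.17 and -0.19 in A549, and the mean of them gave 0.44 (adjusted p = 0.120). Both probe sets of CXCL2 were higher in 3D, at 1.20 and 0.80, and their mean passed at 1.00 (adjusted p = 0.0205). CXCL3 gave 0.63 and -0.12, and CXCL5 -0.09, -0.25 and -1.14. In A549 the probe set used had the highest culture difference in 7 of the 7 members with several probe sets, and in HCC827 in 6 of 7. The actin 3′ minus 5′ signal, given above, also differed between the cultures, and its part in the differences between probe sets was not tested. The count in A549 was 0 when any single A549 array, control or gefitinib in either culture, was omitted. It was 6 when any single HCC827 array was omitted, where CXCL1, CXCL3, CXCL16 and CCL2 joined CXCL2 and CXCL8. The calls over all genes moved likewise, to 0 and to between 7645 and 7648. Without a line by treatment term CXCL8 did not pass (adjusted p = 0.0810).

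**Figure D5:**
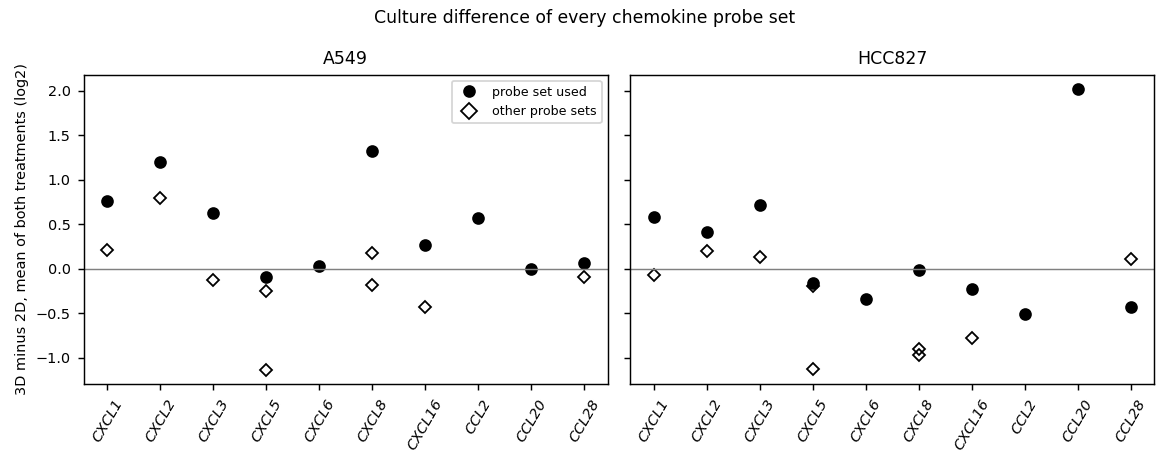
Mean 3D minus 2D difference (log2) of every chemokine probe set in A549 (left) and HCC827 (right), over the control and gefitinib arrays. Filled circles are the probe sets used and open diamonds the others of the same gene. For CXCL8 the circle in A549 stands at 1.32 and the diamonds at 0.17 and -0.19.

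In HCC827 none of the 8 members tested passed for culture by limma (0 of 8, and 2 at an unadjusted p under 0.05), against 33.4% of all genes tested (19.7% higher in 3D and 13.7% lower). CCL20 is given without a test, because it exceeded the array median in the 2 HCC827 3D arrays alone. It read 6.83 and 6.87 in the 2D arrays and 9.84 and 7.90 in the 3D control and gefitinib arrays, so the control pair differed by 3.01 and the gefitinib pair by 1.03. Of the other members, 4 passed when the HCC827 3D control array or the array labelled 2D control was omitted, and 5 when the 3D gefitinib array or the array labelled 2D gefitinib was. None passed when an A549 array was omitted. Over all genes the calls were then 0, and 6951 to 7719 when an HCC827 array was omitted. With the 2D pair turned, CCL2 passed as lower in 3D, at -0.51 (adjusted p = 0.0174). That fit called 6297 of 11926 genes, and CCL2 was below the array median on every HCC827 array.

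No ELR gene passed in HCC827 as fitted, and with cyclic loess CXCL2 did, at 0.61 (adjusted p = 0.0460). CXCL1 stood at 0.58 ± 0.27 (adjusted p = 0.163), CXCL2 at 0.41 ± 0.13 (0.0734), CXCL3 at 0.72 ± 0.27 (0.112) and CXCL6 at -0.33 ± 0.11 (0.0860). CXCL5 stood at -0.16 ± 0.45, but its control pair and its gefitinib pair were unlike, at -1.05 and 0.74. CXCL16 behaved likewise, with -0.75 in the control pair and 0.31 in the gefitinib pair. Members below 0 in both pairs numbered 1 of 9, CXCL6, against 30.1% of all genes. CXCL8 stood at -0.02 ± 0.19 with the probe set used, while its other 2 probe sets gave -0.97 and -0.90. With the mean of its probe sets CXCL8 passed as lower in 3D, at -0.63 (adjusted p = 0.0447).

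Whether the culture difference itself differed between the lines was tested as an interaction. By limma 0 of 8 members passed (2 at an unadjusted p under 0.05), against 0% of all genes, of which 1696 had an unadjusted p under 0.05. CXCL8 stood at -1.34 ± 0.27 (HCC827 minus A549, adjusted p = 0.205) and CXCL2 at -0.79 ± 0.18 (0.223). When a single HCC827 array was omitted, 4 members passed if it was the 3D control or the array labelled 2D control, and 7 passed if it was the 3D gefitinib or the array labelled 2D gefitinib. CXCL8 was among them each time, with values of -1.58 to -1.11, while 3628 to 4535 of all genes passed. With the 2D pair turned CCL2 passed, at -1.08 (adjusted p = 0.0259), CXCL8 had an adjusted p of 0.406, and 690 of all genes passed.

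CCL28, which was below every array median, read 6.08 to 6.28 in A549 and 6.55 to 7.14 in HCC827. In a fit without the filter, over 18244 genes, it was higher in HCC827 by 0.62 ± 0.06 (adjusted p = 0.00177) and lower in 3D in HCC827, at -0.43 ± 0.08 (0.0252). Its other probe set read 0.11 for the same culture difference. At this signal a change of the transcript is hard to read.

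The 5 genes most correlated with CXCL8 included its neighbours CXCL1 and CXCL2 in both measures below. CXCL5 and CXCL6 were not among those 5 but ranked high in the second measure, and CXCL3 was compared in the first alone. Over the 8 arrays and 4473 genes with an SD of at least 0.5, the highest Pearson correlations with CXCL8 were those of CXCL2 (0.96), CXCL1 (0.91), LIF, a cytokine of the IL-6 family (0.86), ADM, the vasodilator peptide adrenomedullin (0.82), and TUBA1A, a tubulin (0.81). In this measure CXCL3 stood at 0.39, CXCL6 at 0.37 and CXCL5 at 0.26. After subtracting each line's mean, over 2054 genes, they were CXCL2 (0.96), TCIM (0.92), MYADM (0.92), CXCL1 (0.91) and MAF (0.90). CXCL6 (0.76) and CXCL5 (0.71) followed at ranks 31 and 51 of 2054, and CXCL3 was not compared because its SD was below 0.5. CCL20 stood at 0.26 in that measure. The arrays share lines and cultures, and these values are descriptions. Both measures include the HCC827 gefitinib pairs that chose the members, and TCIM and MAF were also lower by 2-fold in both pairs. The part of those pairs in the likeness was not tested.

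Other chemokines and the receptors were mostly low. Of 29 other chemokine genes with a probe set, 5 passed the filter, which 11926 of all 18244 genes passed. CX3CL1, a membrane-anchored chemokine, was higher in HCC827 by 2.14 ± 0.21 (adjusted p = 0.00265), and rose on the scaffold in that line by 1.96 ± 0.29 (0.0161), where it read 11.12 and 9.93 in the 3D control and gefitinib arrays and 8.61 and 8.52 in 2D. PPBP and PF4 exceeded the array median in the A549 3D arrays alone, and lymphotactin, XCL1, in the HCC827 3D arrays alone, so their differences between lines and cultures are not tested. PPBP read 6.86 to 7.42 in A549 and 5.93 to 6.34 in HCC827, PF4 read 7.25 to 7.55 and 6.59 to 7.04, and XCL1 read 7.50 and 7.98 in the HCC827 3D arrays and 5.99 to 6.50 in the others. Of 21 chemokine receptors with a probe set, 3 passed the filter, CXCR3, CCR10 and ACKR1. No receptor passed the threshold between the lines by limma (0 of 3), against 48.1% of all genes tested.

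Genes of the NF-kB pathway, which the promoter words above concern, were counted from a list of 16, of which 15 were tested. TRAF1, above the array median in HCC827 alone, was left out between the lines. Of the other 14, 6 were higher and 2 lower in HCC827, against 22% and 26.1% of all genes, with a median of 0.25 against -0.03. They included NFKBIZ, a nuclear IkB protein (2.70 ± 0.13, adjusted p = 0.000598), TNFAIP3 (1.92 ± 0.11, 0.000820) and NFKBIA (1.27 ± 0.17, 0.00641). On the scaffold 9 of 15 rose and 0 fell in A549, against 16.3% and 6.01% of all genes, with a median of 0.79 against 0.13 for all genes tested, and 5 of 15 rose and 0 fell in HCC827, against 19.7% and 13.7%, with a median of 0.34 against 0.09. In A549 these included NFKBIZ (2.18 ± 0.19, adjusted p = 0.0177), the adaptor TNIP1 (1.42 ± 0.16, 0.0185), NFKBIA (1.26 ± 0.25, 0.0356) and the immediate early gene IER3 (1.22 ± 0.20, 0.0271). In HCC827 they included NFKBIA (1.89 ± 0.25, 0.0137) and NFKBIZ (1.45 ± 0.19, 0.0136). Other probe sets of these genes were not compared, although the actin 3′ minus 5′ signal differed between the cultures. Calls for culture also depend on which line supplies the spread, as described above for the members.

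Among 10 tested inflammatory cytokines, IL18 was lower in HCC827 (-2.86 ± 0.31, adjusted p = 0.00329). IL6, above the array median in 3 HCC827 arrays alone, read 6.51 to 6.67 in A549 and 7.25 to 9.09 in HCC827. LIF rose on the scaffold in A549 by 1.22 ± 0.15 (0.0198). Of the enzymes and proteoglycans that process or present chemokines, 8 were tested. On the scaffold 3 were higher and 1 lower in A549, against 16.3% and 6.01% of all genes. In HCC827 2 were higher and 1 lower, against 19.7% and 13.7%. Between the lines 3 were higher and 2 lower in HCC827, against 22% and 26.1%. The CXCL16 sheddase ADAM10 was lower in 3D in both lines, at -0.99 ± 0.12 (0.0191) in A549 and -0.95 ± 0.12 (0.0134) in HCC827. ADAM17, from the same list, went the other way, at 0.60 ± 0.18 and 0.48 ± 0.18, and did not pass. The syndecan SDC1 was higher in 3D in both, by 0.90 ± 0.15 (0.0270) and 1.21 ± 0.15 (0.0130). EXT1 was likewise higher in both, by 1.16 ± 0.17 (0.0225) and 0.77 ± 0.17 (0.0319), and SDC4 in A549, by 1.09 ± 0.13 (0.0196). DPP4, a peptidase that trims chemokine N termini, was higher in HCC827 by 2.99 ± 0.42 (0.00653), and SDC4 by 2.62 ± 0.09 (0.000323). The limits given for the NF-kB genes, on probe sets, the actin signal and the spread, hold for the culture calls here and of CX3CL1 too.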

How the data were processed

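RNA from 8 cultures of 2 cell lines was measured on 1 array each. The authors deposited RMA values on a log2 scale for 49495 probe sets. RMA and R 3.2.1 are named in the submitters' processing notes. Probe sets annotated to 1 gene symbol (45284) were used, those with several (1333) or none (2878) were not, and symbols were updated through RefSeq gene IDs for 45214. The probe set with the highest mean represented each of 18244 genes, and the tests covered 11926 genes that exceeded the median of 2 or more arrays. The members and gene lists were chosen with earlier results of these data known.

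A limma 3.58.1 model (R 4.3.3) with 6 coefficients, for line, culture, treatment, line by culture and line by treatment, was fitted to all tested genes by empirical Bayes with a mean-variance trend. The residual has 2 degrees of freedom, to which the prior adds 2.36. It holds the change of the gefitinib difference between cultures within each line, so p-values do not measure replicate scatter. A member whose gefitinib differences were alike in both HCC827 pairs, which the choice of members concerns, has a small residual and so small standard errors in every contrast. Tests were two-sided with Benjamini-Hochberg adjustment over all tested genes at 0.05. Named genes were the members, up to 4 genes of each other list by size past the threshold, DUSP6, CCND1 and EGFR, and 5 genes most correlated with CXCL8 in each of 2 measures. The fit was tested on simulated data. Promoter words were searched with Python 3.11.15 and alignments made with Biopython 1.88. Alternatives were other probe set rules, no filter, cyclic loess, other variance priors, a smaller model, fits without arrays and, added after seeing the data, the HCC827 2D pair turned. Members above the array median in 1 of the groups compared only were given no test of that contrast. Protein sequences were not used here.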

Additional observations from a re-analysis of the deposited data

Results flagged for a closer look

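CXCL6 was flagged in 2 comparisons, because both pairs of one line had the opposite sign to both pairs of the other. For 3D minus 2D, HCC827 minus A549 was -0.36, from -0.49 and -0.18 in the HCC827 pairs and 0.04 and 0.01 in the A549 pairs, and the interaction did not pass (adjusted p = 0.409). For gefitinib minus control it was -1.47, from -1.49 and -1.17 in HCC827 and 0.15 and 0.12 in A549. This difference was not tested, because the HCC827 pairs chose the members. With the HCC827 2D pair turned, its HCC827 values were 1.49 and -1.17, of opposite sign. In A549 the gene read 5.68 to 5.84, below the median of the background probe sets on each array, so the A549 differences are those of a signal at background. CXCL6 passed the filter through the HCC827 arrays alone.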

How the results depend on the processing

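No paired analysis was possible because the labels carry no replicate numbers and each condition has 1 array. Of 774 values of members under an alternative, 630 kept their direction and side of the threshold, 75 newly passed, 31 no longer passed and 38 changed sign, and the cause was not tested unless stated. When each array was omitted in turn, 2 to 9 members passed between the lines, 0 to 6 for culture in HCC827, 0 to 6 in A549 and 0 to 8 for the interaction, because the spread then comes from 1 line. Averaging probe sets gave 2 members for culture in HCC827, 1 in A549 and 1 lower by 2-fold in both HCC827 gefitinib pairs. At 1.5-fold there were 5, and 7 at any difference. No filter and cyclic loess each gave 2 for culture in HCC827, and a fit of each line by itself gave 0 in HCC827 and 6 in A549. Culture in A549 gave 1 without the line by treatment term and 6 without both HCC827 2D arrays. Turning the labels of the HCC827 2D pair, an alternative chosen after seeing the data, gave 0 members lower by 2-fold in both pairs, 2 for culture in HCC827, 1 in A549 and 1 for the interaction, through the changed spread. These counts are over all 9 members, including those the filter fixes. Over all genes the calls also moved when arrays were omitted, as given above, and nothing is read from the member counts. With the HCC827 2D pair turned, calls over all 11926 genes were 6297 for culture in HCC827, 5405 in A549 and 690 for the interaction. Without both HCC827 2D arrays the line differences were -0.0151 for CXCL1, -0.20 for CXCL2 and -0.49 for CXCL8. With cyclic loess, culture in HCC827 was 0.0865 for CXCL5 and 0.17 for CXCL8, culture in A549 was -0.0179 for CCL20 and the interaction was 0.14 for CXCL5. Averaging probe sets gave -0.0807 for CXCL16 culture in A549 and 0.0043 for the CXCL5 interaction, which was 0.0204 with the most variable probe set. Without the line by treatment term, which averages the lines, gefitinib in A549 was -0.60 for CXCL6 and -0.22 for CXCL16. Omitting arrays in turn, the line difference of CXCL1 ran from -0.17 to 0.32. Culture in HCC827 ran from -1.05 to 0.74 for CXCL5, -0.25 to 0.22 for CXCL8, -0.75 to 0.31 for CXCL16 and -1.07 to 0.0594 for CCL2, and in A549 from -0.13 to 0.13 for CCL20. The interaction ran from -0.68 to 0.31 for CXCL1, -0.40 to 0.59 for CXCL3, -0.96 to 0.83 for CXCL5 and -1.02 to 0.0401 for CXCL16. Gefitinib in A549 ran from -0.34 to 0.067 for CXCL8 and -0.0391 to 0.25 for CXCL16. Signals near background limit CXCL6 and CCL20 in A549, CCL2 in HCC827 and CCL28.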

Other observations

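CXCL10, an interferon-induced chemokine that did not pass the filter, read 8.43 in the HCC827 2D control array, 6.66 in the array labelled HCC827 2D gefitinib and 6.10 to 6.53 in the other 6 arrays. IL6 showed the same array on top, with 9.09 in the HCC827 2D control array against 7.25 in the array labelled 2D gefitinib and 7.32 and 7.40 in the HCC827 3D control and gefitinib arrays. Both genes were named after their values were seen.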
